A study of Mus musculus with 8 samples.

Results

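The matrix metalloproteinases (Mmp), the secreted Adamts proteases and the tissue inhibitors of metalloproteinases (Timp) were examined in mouse bone marrow stromal cells that had flown in space or had stayed on the ground. A gene was included if its annotated symbol was Mmp plus a number, with an optional letter, Adamts plus a number, or Timp1 to Timp4, and if a probe set named that gene alone. No gene was left out for a dim signal, and where a gene had several probe sets the brightest stood for it. This gave 44 of 19938 genes on the arrays, of which 22 were Mmp, 18 Adamts and 4 Timp genes. Mmp15 and Adamts2 also carry such names and were not analysed here.

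The proteases of both families hold zinc in their active site and are made with a propeptide, which in most keeps them inactive until it is removed. Together they cut collagens, proteoglycans and other proteins of the extracellular matrix. Bone marrow stromal cells and the osteoblasts that arise from them use these enzymes to process and replace the collagen matrix around them, and TIMPs, which plug the active site, restrain most of the enzymes.

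Marrow was flushed from the femurs and tibiae of C57BL/6 mice aged 6 to 8 weeks, the adherent cells were expanded to the first passage, and they were then placed on Skelite scaffold. Some cultures stayed in growth medium, a Ham's F12 base with fetal calf serum, and others were given osteoinductive medium, used to direct such cells to bone. The labels used here name neither its additives nor the sex of the mice or the days in culture. Each was sampled once under each of 4 conditions: microgravity in an automated flight incubator, a 1g centrifuge in that incubator, hand-operated incubation units at normal gravity, and laboratory culture dishes at normal gravity. The first 2 conditions are called flight and the last 2 ground-based. The centrifuge arrays carry a label of microgravity beside titles and descriptions that place them at 1g, and the osteoinductive centrifuge array is once described as in growth medium, so for these arrays the titles were followed. Nothing in the labels says that cultures came from separate animals, so p-values measure only the spread between 8 single arrays, which may be technical.

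All values are log2 intensities or differences between them, so a difference of 1 is a doubling. Median intensity per array lay between 180.9 and 196.4, and the number of arrays limits the precision. Of the 44 genes, 29 had a mean log2 intensity over 7.14, which was the 40th percentile of the array, and 15 lay below it. The dimmer genes were Mmp1a, Mmp1b, Mmp3, Mmp7, Mmp8, Mmp10, Mmp17, Mmp20, Mmp21, Mmp27, Adamts15, Adamts16, Adamts19, Adamts20 and Timp4. Each comparison was fitted with limma over all 19938 genes, and a gene was called when its adjusted p was under 0.05. The SE given beside a difference is its standard error on the log2 scale.

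The label of the cells was checked against marker lists. All 13 stromal markers measured, among them Col1a1, Pdgfrb and Thy1, lay above the 40th percentile. Of 10 neutrophil markers, 9 lay below it, with Lcn2 as the exception. Most markers of several other cell types lay above it as well. Below it were only Adgre1, Itgam, Mrc1 and Fcer1g of 13 macrophage markers and Calcr, Dcstamp and Atp6v0d2 of 8 osteoclast markers. Of 13 skeletal muscle markers, only Myog lay below it. This cutoff therefore did not set stromal cells apart from those types. Markers of other tissues separated flight from ground-based arrays. Over all genes, 11.6% were called higher in flight and 16.2% lower. All 13 neuronal markers were higher in flight, with a summed intensity of 11554 to 17095 in the 4 flight arrays and 3076 to 4171 in the 4 ground-based arrays. The means of Nefl, Nefm and Elavl4 over all 8 arrays lay below the 40th percentile. Of 13 skeletal muscle markers, 11 were higher in flight (summed intensity 7132 to 9517 against 2596 to 2796). The same held for 11 of 12 endothelial markers (2560 to 4281 against 1925 to 1967) and 9 of 10 chondrocyte markers (3588 to 4116 against 2694 to 3027). Of 12 lung epithelial markers, 5 were higher in flight (2601 to 14794 against 1613 to 1774). The highest lung epithelial sum and the highest endothelial sum both came from the osteoinductive microgravity array. No marker of these lists was at 0, since array intensities have no true zero. In such bulk RNA, fewer cells of a type and less RNA per cell cannot be told apart.

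**Figure D1:**
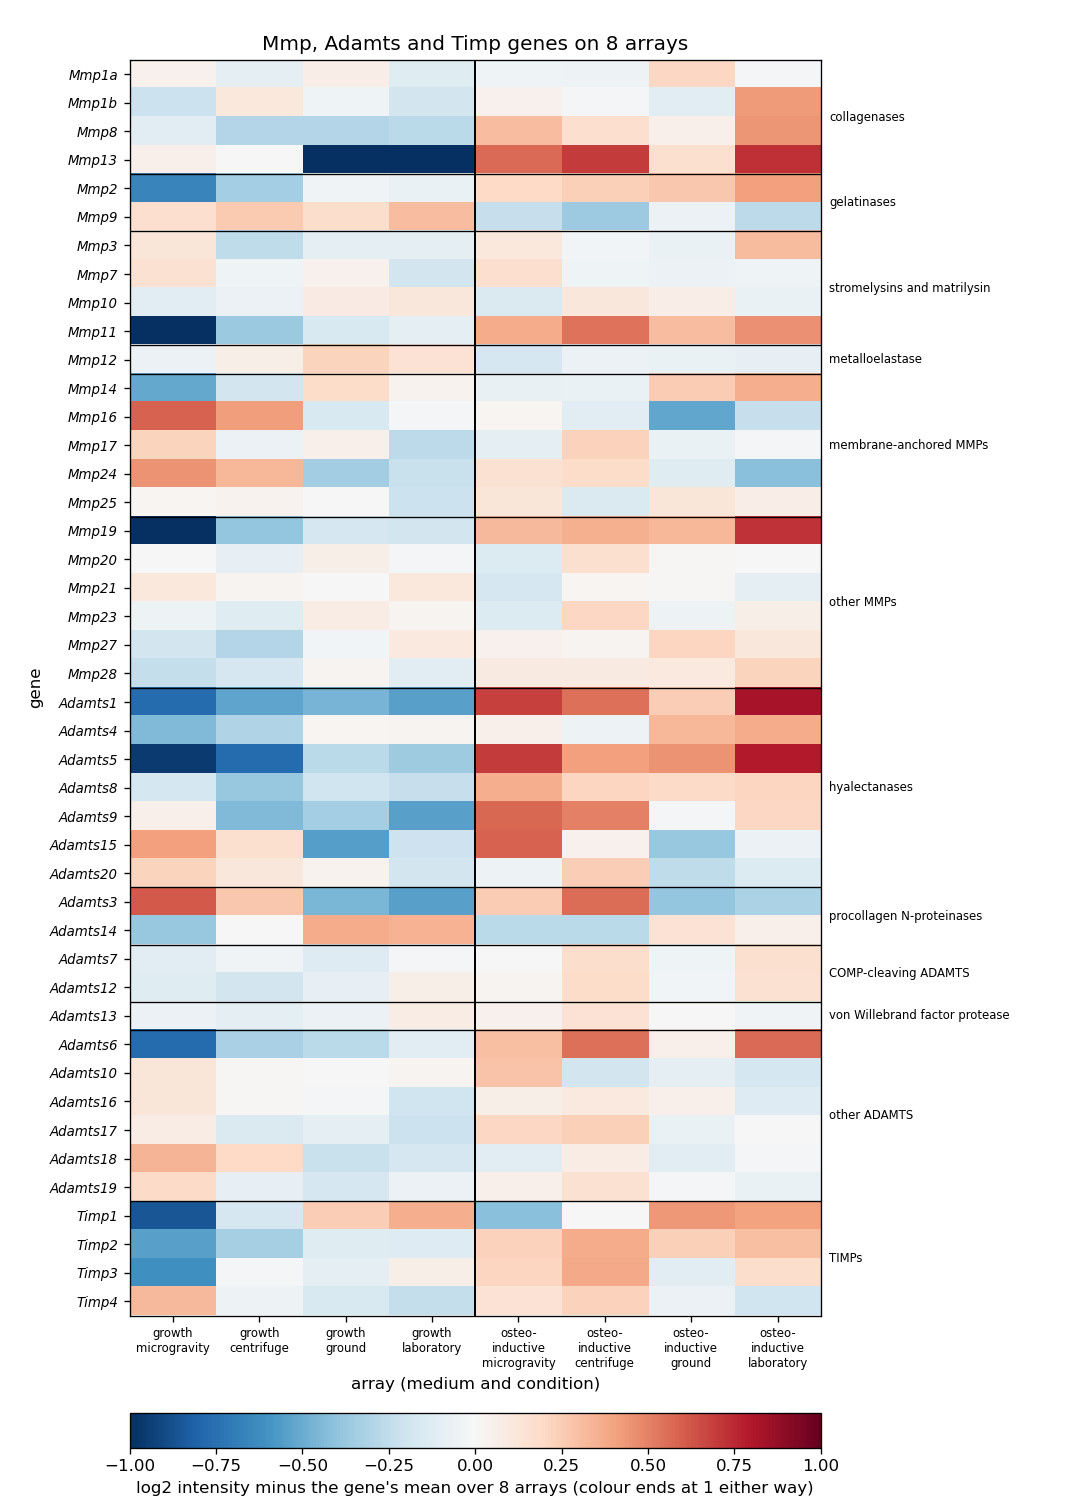
Log2 intensity of the 44 Mmp, Adamts and Timp genes (rows, grouped by the role given at the right) on the 8 arrays (columns), each shown as the difference from the gene's own mean, with blue lower, red higher and the colour ending at 1 either way. Adamts1, Adamts5, Mmp13, Mmp11 and Mmp19 were higher in the osteoinductive columns, and Adamts3, Mmp16 and Mmp24 were higher on the flight arrays of each medium.

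The comparison of osteoinductive with growth medium asked which matrix proteases moved when the cells were directed towards bone. Proteoglycan-cleaving ADAMTS enzymes, the collagenase Mmp13 and several stromal MMPs were higher in osteoinductive medium, and Mmp9 and Mmp16 were lower. Of the 44 genes, 12 rose (4.18% of all genes rose) and 2 fell (4.27% of all genes fell), so 31.8% were called against 8.45% of all genes tested. The median log2 difference of the 44 genes was 0.12, and that of all genes was 0.01. Of the 44 genes, 19 were higher in osteoinductive medium in each of the 4 conditions, as were 14.6% of all genes, and Mmp9, Mmp12 and Mmp16 were lower in each, as were 15.3% of all genes.

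Among the collagenases, which cut fibrillar collagen across its triple helix, Mmp13 showed a large difference between media. This enzyme is made by osteoblasts and hypertrophic chondrocytes in bone. In growth medium Mmp13 read 7.87 in microgravity, 7.82 on the centrifuge, 6.82 in ground units and 6.61 in dishes, and in osteoinductive medium it read 8.39, 8.52, 7.98 and 8.55 in the same order. Every osteoinductive array lay above every growth array, and both ground-based growth arrays stood well below the other 6. The difference was 2.11-fold (1.08, SE 0.18, limma adjusted p = 0.00324). Mmp8, the collagenase of neutrophils, read 5.83, 5.64, 5.64 and 5.66 in growth medium and 6.24, 6.10, 5.98 and 6.37 in osteoinductive medium, in the order microgravity, centrifuge, ground units and dishes. It rose by 0.48 (SE 0.09, limma adjusted p = 0.00641) and was dim, at percentile 16.2 of all probe sets. Of 10 neutrophil markers, 1 was called between media (Lcn2, 1.5), and the median of the list was 0.13. Their summed intensity was 914 to 1116 in growth medium and 1143 to 1605 in osteoinductive medium, with no overlap. That sum includes Lcn2, which read 6.83 to 7.40 in growth medium and 7.95 to 9.28 in osteoinductive medium. The other 9 markers were not called and lay below the 40th percentile. No sum without Lcn2 is given, so the gap between media cannot be assigned to those 9. The part of neutrophil RNA in the Mmp8 difference was not tested. Mmp1a and Mmp1b were not called, at 0.05 and 0.17.

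Mmp13 and Mmp8 belong to a run of 10 MMP genes on chromosome 9 that follow each other with no other protein-coding gene between them in RefSeq (assembly GRCm38.p6). The order is Mmp13, Mmp12, Mmp1b, Mmp3, Mmp1a, Mmp10, Mmp8, Mmp27, Mmp20 and Mmp7. Of these 10 genes, Mmp13 and Mmp8 were called between media, and the other 8 had differences from -0.19 for Mmp12 to 0.20 for Mmp27. The stromelysins Mmp3 and Mmp10, enzymes with broad matrix substrates that can also activate procollagenases, differed by 0.16 and -0.02. Both were dim, at percentiles 28.2 and 29.1 of all probe sets against 56.2 for Mmp13, so a difference could go unseen. In this run only Mmp13 and Mmp12 lay above the 40th percentile. The proximal promoters of Mmp3 and Mmp10 are shown beside that of Mmp13 because the 3 genes share 2 short motifs. Of the 3, only Mmp13 was called between media. The Adamts1 promoter is shown as that of another gene that was higher in osteoinductive medium. Each sequence is the 150 bases before the RefSeq start, printed on the gene's own strand, from chr9:7272364-7272513 (+) for Mmp13, chr9:7445672-7445821 (+) for Mmp3, chr9:7502192-7502341 (+) for Mmp10 and chr16:85803114-85803263 (-) for Adamts1. Capitals mark the AP-1 motif (TGAGTCA or TGACTCA), the RUNX motif (ACCACA or TGTGGT), the TATA box (TATAAA, gene's strand only) and the GC box (GGGCGG or CCGCCC).
Mmp13: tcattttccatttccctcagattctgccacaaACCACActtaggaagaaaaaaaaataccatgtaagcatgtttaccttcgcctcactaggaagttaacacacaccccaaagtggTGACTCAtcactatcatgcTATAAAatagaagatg
Mmp3: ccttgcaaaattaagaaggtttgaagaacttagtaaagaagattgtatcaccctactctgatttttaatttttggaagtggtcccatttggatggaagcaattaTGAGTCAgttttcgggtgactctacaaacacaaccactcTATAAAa
Mmp10: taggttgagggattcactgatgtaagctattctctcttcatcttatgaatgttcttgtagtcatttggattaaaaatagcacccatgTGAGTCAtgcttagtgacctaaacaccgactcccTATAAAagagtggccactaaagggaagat
Adamts1: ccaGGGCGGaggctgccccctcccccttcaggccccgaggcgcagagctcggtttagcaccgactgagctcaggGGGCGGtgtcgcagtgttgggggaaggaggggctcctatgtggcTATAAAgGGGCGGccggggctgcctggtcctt

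The AP-1 motif began 35 bases before the start in Mmp13, 46 in Mmp3 and 63 in Mmp10, in each case upstream of a TATA box. It was present in 2.84% of 32851 promoter windows of this length, the TATA box in 4.84%, the RUNX motif in 8.4% and the GC box in 28.6%. A promoter was listed for 30 of the 44 genes, and 7 of the 30 held the AP-1 motif, all of them in the chromosome 9 run (Mmp1a, Mmp1b, Mmp3, Mmp7, Mmp10, Mmp12 and Mmp13). Mmp13 alone of the 4 printed windows held the RUNX motif, 118 bases before the start, and Adamts1 alone held GC boxes. A match is a description of these letters and does not show a bound factor.

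Both gelatinases, which digest denatured collagen and basement membrane collagen, were called and moved in opposite directions. Mmp2, abundant in fibroblast-like cells, read 11.49 in microgravity, 11.81 on the centrifuge, 12.12 in ground units and 12.09 in dishes in growth medium, and 12.35, 12.39, 12.42 and 12.56 in osteoinductive medium. The 4 osteoinductive arrays were close to each other and above all growth arrays, a difference of 1.47-fold (0.55, SE 0.10, limma adjusted p = 0.00532). Mmp9, the gelatinase of osteoclasts and white blood cells, fell by 0.46 (SE 0.09, limma adjusted p = 0.00952), from 8.28 to 8.42 over the growth arrays to 7.75 to 8.05 over the osteoinductive arrays. Mmp9 lay outside the rule for genes given in full and is named because it was 1 of the 2 that fell. Of the marker lists of cells that make it, 1 of 8 osteoclast markers was higher (Atp6v0d2, 0.87) and 1 of 13 macrophage markers was lower (Csf1r, -0.32). Of 10 neutrophil markers, 1 was higher (Lcn2) and none was lower. The summed neutrophil intensity, Lcn2 included, was 914 to 1116 in growth medium and 1143 to 1605 in osteoinductive medium. The summed osteoclast intensity was 1207 to 1411 in growth medium and 1230 to 1377 in osteoinductive medium. The summed macrophage intensity was 2209 to 2331 in growth medium and 2020 to 2782 in osteoinductive medium. The highest sum held Lyz2 at 9.72 in osteoinductive microgravity, against 7.43 to 7.80 on the other 7 arrays. Without Lyz2, left out after its values were seen, the sum was 2023 to 2109 in growth medium and 1839 to 1941 in osteoinductive medium, with no overlap. The part of macrophage, osteoclast or neutrophil RNA in the Mmp9 difference was not tested.

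Mmp11 and Mmp19 rose as well. Mmp11, stromelysin-3, is a protease of connective tissue cells that is activated inside the cell. It read 9.49, 10.19, 10.41 and 10.47 in growth medium and 10.93, 11.10, 10.87 and 11.02 in osteoinductive medium, in the order microgravity, centrifuge, ground units and dishes. The osteoinductive arrays were nearly level, and the growth array from microgravity stood lowest of all 8. Its difference was 1.79-fold (0.84, SE 0.14, limma adjusted p = 0.00319), and it was 0.82 with an adjusted p of 0.0524 without either centrifuge array. Mmp19, which cuts basement membrane proteins, read 9.07, 9.69, 9.91 and 9.89 in growth medium and 10.40, 10.43, 10.41 and 10.80 in osteoinductive medium. It had the same shape, with the lowest value in growth medium in microgravity, and differed by 1.82-fold (0.86, SE 0.12, limma adjusted p = 0.000918).

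Of the 5 MMPs grouped here as membrane-anchored, which cut matrix at the cell surface, Mmp16 was called between media and the other 4 were not. Mmp23 was counted with other MMPs and not in this group. Mmp16 read 8.67, 8.50, 7.93 and 8.06 in growth medium and 8.10, 7.97, 7.56 and 7.85 in osteoinductive medium, so it was lower in osteoinductive medium within each condition although the groups overlapped. It fell by 0.42 (SE 0.09, limma adjusted p = 0.0132). Of 13 neuronal markers, 6 were lower in osteoinductive medium too, where 4.27% of all genes fell, and none was higher. Their median was -0.31, and their part in the Mmp16 difference was not tested. Mmp14, the membrane enzyme MT1-MMP that activates proMmp2 with the help of Timp2, differed by 0.24 (95% interval 0.04 to 0.44, limma adjusted p = 0.141).

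The ADAMTS proteases that cut aggrecan and versican made up the largest called group. Of 7 such genes, 5 rose (Adamts1, Adamts4, Adamts5, Adamts8 and Adamts9), and Adamts15 and Adamts20 were not called. Adamts1 read 8.93 in microgravity, 9.17 on the centrifuge, 9.23 in ground units and 9.15 in dishes in growth medium, and 10.38, 10.25, 9.94 and 10.52 in osteoinductive medium. The 2 sets of values were far apart, by 2.22-fold (1.15, SE 0.12, limma adjusted p = 0.000116). Adamts5, the main aggrecanase of mouse cartilage, read 7.43, 7.62, 8.12 and 8.03 in growth medium and 9.09, 8.80, 8.84 and 9.18 in osteoinductive medium. It differed by 2.27-fold (1.18, SE 0.13, limma adjusted p = 0.000149), and both growth arrays from flight were its lowest. Adamts1 and Adamts5 are neighbours on chromosome 16 with no protein-coding gene between them. Adamts8 and Adamts15 are likewise neighbours on chromosome 9, and of these Adamts8 was called and Adamts15 was not (0.10, 95% interval -0.10 to 0.29, limma adjusted p = 0.605).

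Adamts9, which also acts on proteoglycans, read 9.30, 8.81, 8.91 and 8.71 in growth medium and 9.83, 9.76, 9.24 and 9.46 in osteoinductive medium, in the order microgravity, centrifuge, ground units and dishes. It rose by 0.64 (SE 0.10, limma adjusted p = 0.00305), and all 6 of its probe sets were higher in osteoinductive medium, with a median of 0.73. Adamts8 rose by 0.49 (SE 0.08, limma adjusted p = 0.00356), from 7.66, 7.46, 7.64 and 7.61 to 8.20, 8.05, 8.03 and 8.05, and the groups did not overlap. Adamts4, an aggrecanase induced by inflammatory signals, rose by 0.35 (SE 0.08, limma adjusted p = 0.0247), from 8.26, 8.40, 8.72 and 8.73 to 8.75, 8.65, 9.03 and 9.07. Its groups overlapped because the flight arrays were lower in each medium. Adamts6, grouped with the remaining ADAMTS genes, read 7.44, 7.88, 7.94 and 8.09 in growth medium and 8.51, 8.76, 8.26 and 8.77 in osteoinductive medium and rose by 0.73 (SE 0.11, limma adjusted p = 0.00221).

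The procollagen N-proteinases, which trim new fibrillar collagens, were not called between media (Adamts3 0.06, Adamts14 -0.17), nor were the COMP-cleaving enzymes Adamts7 (0.14) and Adamts12 (0.17) or the von Willebrand factor protease Adamts13 (0.07). Among the inhibitors, Timp2 was called. Timp2, which both inhibits MMPs and helps Mmp14 to activate proMmp2, read 10.37, 10.58, 10.79 and 10.78 in growth medium and 11.14, 11.28, 11.15 and 11.21 in osteoinductive medium. All osteoinductive arrays lay above all growth arrays, by 1.48-fold (0.56, SE 0.09, limma adjusted p = 0.00353). Timp1, Timp3 and Timp4 differed by 0.21, 0.33 and 0.06, with 95% intervals of 0.01 to 0.41, 0.06 to 0.60 and -0.14 to 0.26 and limma adjusted p of 0.197, 0.131 and 0.79.

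**Figure D2:**
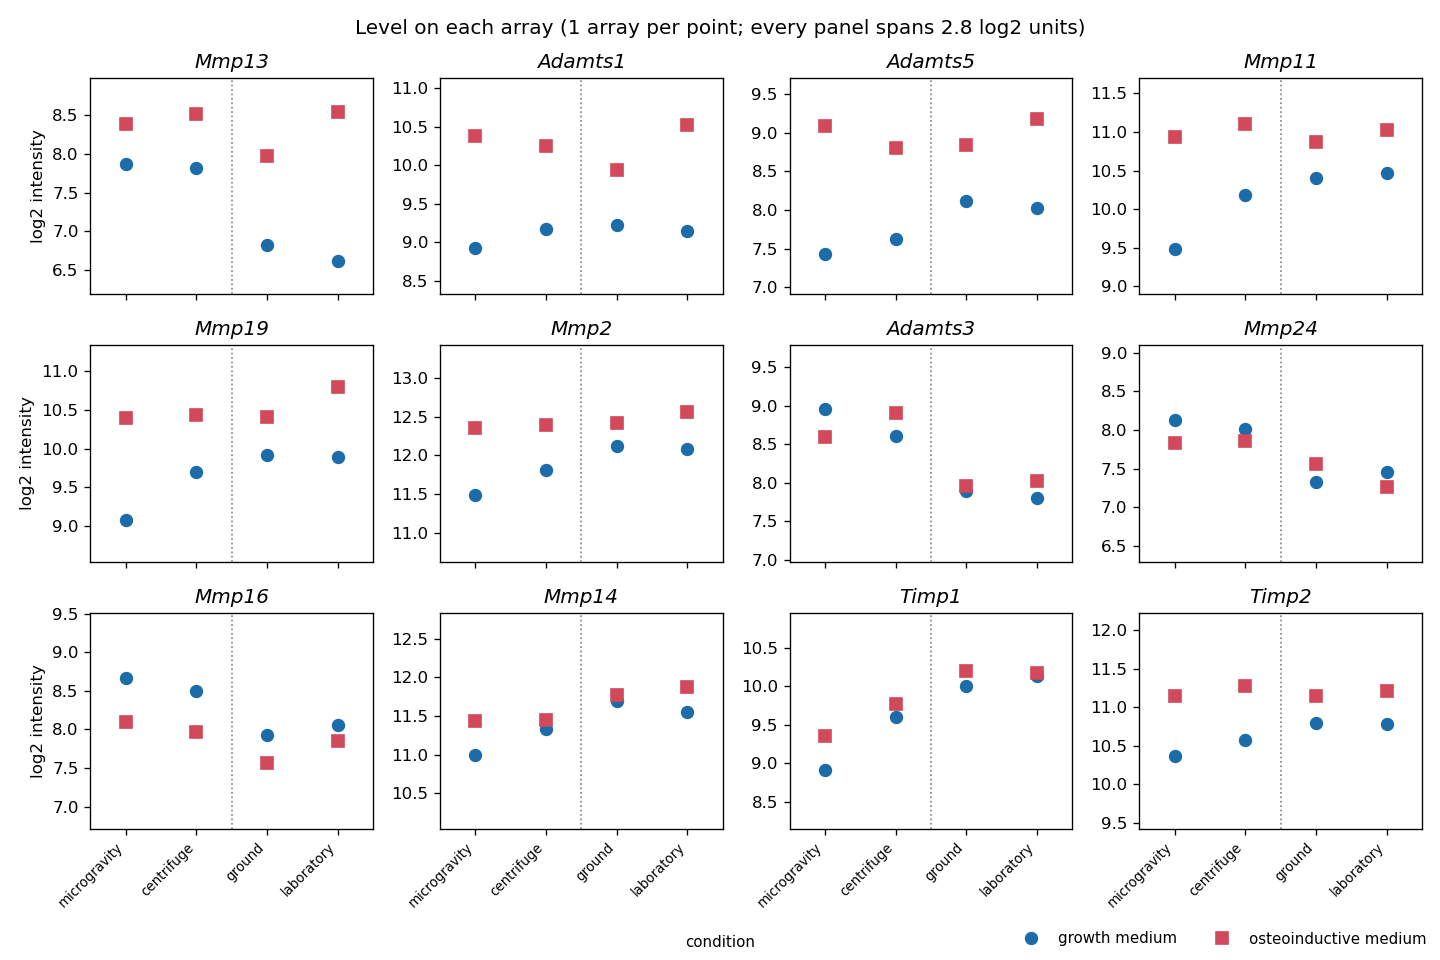
Log2 intensity of 12 genes on each of the 8 arrays, 1 point per array, with the 4 conditions on the x axis, circles for growth medium, squares for osteoinductive medium and a dotted line between flight and ground-based arrays. Squares lie above circles in every condition for Mmp13, Adamts1, Adamts5, Mmp11, Mmp19, Mmp2 and Timp2, and Timp1 reads 8.91 and 9.35 in microgravity against 10.01 to 10.20 in the ground-based arrays.

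The difference between media was also taken within the flight and within the ground-based arrays, with 2 arrays on each side and a spread shared by all 4 cells. In ground-based arrays 3 of the 44 genes were called, all higher (6.8% against 1.07% of all genes): Mmp13 by 1.55 (SE 0.17, limma adjusted p = 0.000678), Adamts1 by 1.04 (adjusted p = 0.0137) and Adamts5 by 0.94 (adjusted p = 0.00958). Next by p were Mmp19 (0.70), Mmp8 (0.53) and Adamts8 (0.42), with adjusted p of 0.146, 0.156 and 0.195. In flight arrays 9 rose and 2 fell (25.0% against 5.74% of all genes), with the largest rises in Adamts5 (1.42), Adamts1 (1.27), Mmp11 (1.18), Mmp19 (1.03) and Adamts6 (0.97). Mmp13 differed by 0.61 there. Over the 44 genes the 2 sets of differences, which share no array, had the same sign in 34 genes and a Pearson r of 0.79, against 0.70 over all genes. Leaving out 1 array moved the ground-based count to 1 without the growth ground, growth laboratory or osteoinductive laboratory array. The calls lost were Adamts1 (1.08, 1.00 and 0.74 in that order) and Adamts5 (0.98, 0.90 and 0.77). The flight count became 7 without the osteoinductive microgravity array and 4 without the osteoinductive centrifuge array, where Adamts6 (0.85, adjusted p = 0.1) and Mmp19 (1.01, adjusted p = 0.0582) no longer passed.

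The comparison of flight with ground-based arrays asked what differed with the flight as a whole, in which automated hardware replaced hand-operated units and dishes. Adamts3, Mmp13, Adamts15, Mmp24 and Mmp16 led the rises, and Timp1, Adamts14, Mmp14, Adamts4 and Mmp2 fell. Of the 44 genes, 8 rose (11.6% of all genes rose) and 5 fell (16.2% of all genes fell). The share called was 29.5%, against 27.8% of all genes, so the families as a whole were called about as often as other genes. The median difference was -0.03, and that of all genes was -0.02. Flight and ground-based arrays did not overlap within either medium for 7 genes higher in flight (14.9% of all genes) and for 7 genes lower in flight (20.2% of all genes).

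The procollagen N-proteinases moved in opposite directions. Adamts3, which removes the N-propeptide of cartilage collagen among others, read 8.96 in microgravity, 8.61 on the centrifuge, 7.89 in ground units and 7.80 in dishes in growth medium, and 8.60, 8.90, 7.96 and 8.03 in osteoinductive medium. All flight arrays were above all ground-based arrays, by 1.80-fold (0.84, SE 0.10, limma adjusted p = 7.63e-05), and all 16 of its probe sets were higher in flight, with a median of 0.75. Adamts14 read 8.70, 9.07, 9.45 and 9.42 in growth medium and 8.81, 8.81, 9.22 and 9.13 in osteoinductive medium, in the order microgravity, centrifuge, ground units and dishes. Every flight array was below every ground-based array, and it fell by 0.46 (SE 0.09, limma adjusted p = 0.00366).

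The membrane-anchored Mmp16 and Mmp24, both known from the brain, rose by 0.46 (SE 0.10, limma adjusted p = 0.00469) and 0.55 (SE 0.09, limma adjusted p = 0.000995). Mmp24 read 8.13, 8.01, 7.33 and 7.46 in growth medium and 7.83, 7.86, 7.56 and 7.26 in osteoinductive medium, with no overlap between flight and ground-based arrays. Mmp16, whose values are given above, was higher in flight within each medium. The neuronal marker list rose on the same arrays, 13 of 13 genes with a median of 2.16, and its part in the differences of Mmp16 and Mmp24 was not tested. Mmp17 and Mmp25, the membrane MMPs held by a lipid anchor, were not called (0.15 and 0.02).

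Mmp14 fell by 0.42 (SE 0.09, limma adjusted p = 0.00458) while its relatives Mmp16 and Mmp24 rose. It read 11.00, 11.33, 11.70 and 11.55 in growth medium and 11.44, 11.45, 11.77 and 11.88 in osteoinductive medium, and every flight array was below every ground-based array. After quantile normalization its fall was 0.26 (-0.26, adjusted p = 0.0268). Mmp2, the precursor that Mmp14 activates, fell by 0.29 (SE 0.10, limma adjusted p = 0.0472), close to the threshold. It did not pass after quantile normalization (-0.14, adjusted p = 0.273) or with a prior that followed the mean (adjusted p = 0.0663), nor without the growth array from microgravity (-0.19), ground units (-0.25) or dishes (-0.26), nor without the osteoinductive array from microgravity (-0.31) or dishes (-0.30). Of the stromal markers, 6 of 13 were lower in flight, where 16.2% of all genes fell. Higher in flight was 1 of the 13, where 11.6% of all genes rose: Eng, which is also on the endothelial list. The summed intensity of the stromal markers was 36718 to 45136 in flight and 45279 to 50004 in ground-based arrays. The part of this in the falls of Mmp14, Mmp2 and Timp1 was not tested.

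Mmp13 rose by 0.66 (SE 0.18, limma adjusted p = 0.0155), from 1.13 in growth medium and 0.19 in osteoinductive medium. Without the growth array from microgravity it was 0.56 (adjusted p = 0.0636) and without that from dishes 0.53 (adjusted p = 0.056), so the call rested on single arrays. Of 10 chondrocyte markers, 9 were higher in flight with a median of 0.57, and their part in the differences of Mmp13 and Adamts3 was not tested. Mmp8 (0.04), Mmp9 (-0.08), Mmp12 (-0.11), Mmp3 (-0.03) and Mmp10 (-0.10) were not called. Mmp11 (-0.27) and Mmp19 (-0.35) did not pass either.

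Among the proteoglycan-cleaving ADAMTS, Adamts15, Adamts9 and Adamts20 rose and Adamts4 fell. Adamts15 read 7.54 in microgravity, 7.29 on the centrifuge, 6.58 in ground units and 6.92 in dishes in growth medium, and 7.72, 7.17, 6.75 and 7.07 in osteoinductive medium. The flight arrays were higher in each medium, by 0.60 (SE 0.13, limma adjusted p = 0.00556). Adamts4, with values given above, fell by 0.37 (SE 0.08, limma adjusted p = 0.00381). Adamts20, important for pigment cells, read 6.94, 6.83, 6.75 and 6.53 in growth medium and 6.66, 6.96, 6.46 and 6.58 in osteoinductive medium. It rose by 0.27 (limma adjusted p = 0.0462), near the threshold, and was 0.18 after quantile normalization (adjusted p = 0.159) and 0.21 with 32 added before log2 (adjusted p = 0.0545). It did not pass without the growth array from microgravity (0.25) or dishes (0.23), nor without the osteoinductive array from the centrifuge (0.21), ground units (0.24) or dishes (0.29). Adamts9 rose by 0.34 (limma adjusted p = 0.0388), and all 6 of its probe sets were higher in flight, but with the mean of those probe sets it was 0.24 (adjusted p = 0.0831). It did not pass without the growth array from microgravity (0.27) or dishes (0.32), nor without any single osteoinductive array (0.31, 0.34, 0.28 and 0.37 in the order microgravity, centrifuge, ground units and dishes). Adamts1, Adamts5 and Adamts8 were not called in flight (-0.03, -0.31 and 0.01). Adamts17, grouped with the remaining ADAMTS genes, was not called either, at 0.19 for its brightest probe set. All 5 of its probe sets were higher in flight, however, with a median of 0.39. With the mean of probe sets for every gene, 8 of the 44 genes rose and 5 fell, the same counts as with the brightest probe set. The genes called were not all the same, since Adamts9 was no longer among them.

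Of the inhibitors, Timp1 fell, Timp4 rose, and Timp2 and Timp3 were not called. Timp1, a secreted inhibitor that is also a growth factor, read 8.91 in microgravity, 9.60 on the centrifuge, 10.01 in ground units and 10.13 in dishes in growth medium, and 9.35, 9.77, 10.20 and 10.17 in osteoinductive medium. All 4 flight arrays lay below all 4 ground-based arrays, and within each medium microgravity was the lowest. It fell by 0.72, or 1.65-fold (SE 0.14, limma adjusted p = 0.00251). Timp4, an inhibitor of muscle, heart and brain, read 7.07, 6.70, 6.60 and 6.51 in growth medium and 6.89, 6.98, 6.69 and 6.55 in osteoinductive medium and rose by 0.32 (SE 0.09, limma adjusted p = 0.0212). It stayed dim and did not pass without the growth array from microgravity (0.25) or dishes (0.31), nor without the osteoinductive array from the centrifuge (0.31) or dishes (0.30), nor after quantile normalization (0.24). Skeletal muscle markers rose on the same arrays, 11 of 13 with a median of 1.41, and their part in the Timp4 difference was not tested.

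Timp2, read at 10.37 to 11.28 in flight and 10.78 to 11.21 on the ground, differed by -0.14 (95% interval -0.34 to 0.06, limma adjusted p = 0.298). Timp3, the inhibitor that binds matrix and also blocks ADAMTS enzymes, read 10.62, 11.21, 11.14 and 11.29 in growth medium and 11.45, 11.61, 11.13 and 11.41 in osteoinductive medium, in the order microgravity, centrifuge, ground units and dishes. It differed by -0.02 (95% interval -0.34 to 0.29, limma adjusted p = 0.927), and its growth array from microgravity was the lowest of the 8.

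**Figure D3:**
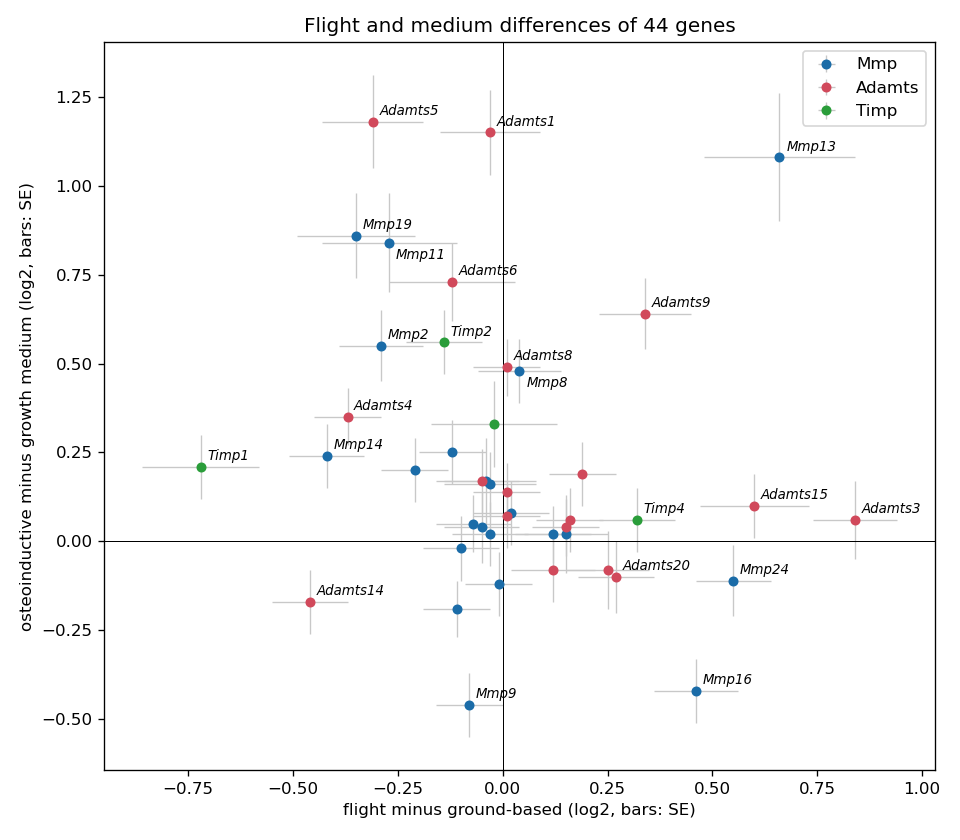
Log2 difference of flight minus ground-based arrays (x axis) against that of osteoinductive minus growth medium (y axis) for the 44 genes, with bars for the SE and names on genes called in either comparison. Mmp13 and Adamts9 lie high and to the right, Adamts1 and Adamts5 are high with flight differences of -0.03 and -0.31, and Timp1 lies farthest left at -0.72.

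The count of genes called in flight depended on which arrays entered. It was 8 in place of 13 without the growth array from microgravity, 8 without that from dishes, 7 without both laboratory arrays and 7 with no term for medium. Without the laboratory arrays Mmp14 (-0.43, adjusted p = 0.0525) and Adamts4 (-0.36, adjusted p = 0.0721) no longer passed, and neither did Adamts9, Adamts20, Mmp2 and Timp4. With no term for medium Mmp13 (0.66, adjusted p = 0.256), Mmp16 (0.46, adjusted p = 0.0771), Adamts4 (-0.37, adjusted p = 0.0728), Adamts9, Adamts20 and Mmp2 did not pass.

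The flight difference was then taken within each medium, with 2 arrays on each side, to see whether the medium altered it. In growth medium 6 genes rose and 6 fell (27.3% against 10.6% of all genes), and in osteoinductive medium 2 rose and none fell (4.5% against 13.0% of all genes). In growth medium the largest differences were Mmp13 at 1.13 (SE 0.17, limma adjusted p = 0.000839), Adamts3 at 0.94 (adjusted p = 0.00118), Timp1 at -0.82 (adjusted p = 0.0217), Mmp24 at 0.67 (adjusted p = 0.00517) and Adamts15 at 0.66 (adjusted p = 0.0465). In osteoinductive medium Adamts3 (0.75, limma adjusted p = 0.00591) and Mmp24 (0.44, adjusted p = 0.0472) were called. Timp1 (-0.63), Adamts4 (-0.34) and Mmp14 (-0.38) had adjusted p of 0.0605, 0.071 and 0.082 there. Neither set of calls shows that a difference was confined to 1 medium.

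The difference between media in the flight response was tested directly. No gene passed in limma, among the 44 or among all genes (0% called), and the smallest adjusted p of the 44 was 0.85. An unadjusted p under 0.05 was found for 5 of the 44 genes and for 4.22% of all genes. The 3 with the smallest p were Mmp13, whose flight difference was smaller in osteoinductive than in growth medium by 0.94 (-0.94, 95% interval -1.46 to -0.42, limma adjusted p = 0.85), Mmp11 (0.68, interval 0.10 to 1.26) and Adamts18 (-0.43, interval -0.80 to -0.05), the last 2 with adjusted p = 1. Adamts18 read 7.55, 7.41, 6.99 and 7.04 in growth medium and 7.10, 7.28, 7.10 and 7.20 in osteoinductive medium, so its flight arrays stood apart in growth medium and not in the other. Over the 44 genes the flight differences in the 2 media, which share no array, had the same sign in 28 genes and a Pearson r of 0.74, against 0.85 over all genes.

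**Figure D4:**
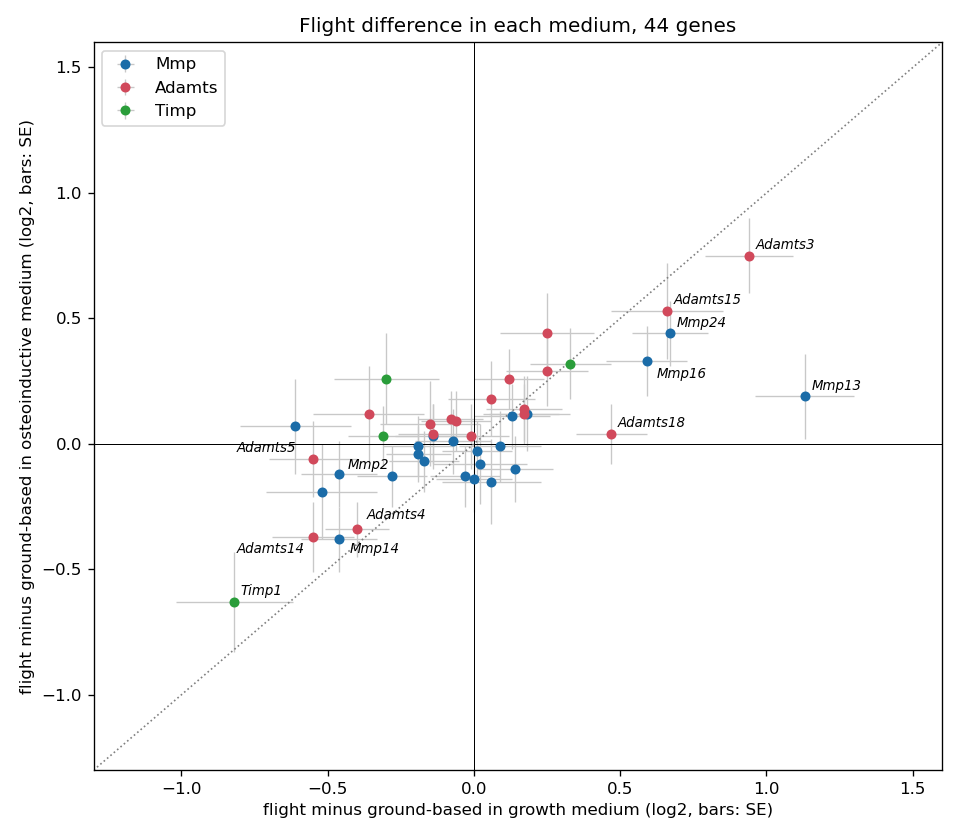
Log2 difference of flight minus ground-based arrays in growth medium (x axis) against that in osteoinductive medium (y axis) for the 44 genes, with bars for the SE, a dotted line of equal differences and names on genes called in either medium. Adamts3 (0.94 and 0.75) and Timp1 (-0.82 and -0.63) lie near the line, and Mmp13 (1.13 and 0.19) lies below it.

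Counts within a medium rested on single arrays. The 12 genes called in growth medium became 3 without the microgravity array, 2 without the ground array and 3 without the laboratory array of that medium, and 7 without the ground or the laboratory array of the other medium. Timp1 was -0.47 (adjusted p = 0.179) without the growth microgravity array, -0.88 (adjusted p = 0.0766) without the growth ground array and -0.76 (adjusted p = 0.145) without the growth laboratory array. Adamts15 was 0.54, 0.49 and 0.83 without those 3 arrays and did not pass, and Mmp24 was 0.61 (adjusted p = 0.0698) without the growth ground array. The 2 genes called in osteoinductive medium became 7 without the growth microgravity or growth centrifuge array, 0 without the osteoinductive ground array and 1 without any of the other 5. Adamts3 there was 0.60 (adjusted p = 0.0539) without the centrifuge array and 0.72 (adjusted p = 0.0606) without the ground array of that medium. Mmp24 did not pass without any of the arrays other than those of growth medium in flight, at 0.29 to 0.58. Timp1, Mmp14 and Adamts4 passed in osteoinductive medium (adjusted p = 0.0122, 0.0257 and 0.03) without the growth microgravity or growth centrifuge array. With all arrays, Timp1 also passed there under the filters at the 40th and 60th percentiles (-0.63, adjusted p = 0.0465 and 0.0495), and Adamts4 with 32 added before log2 (-0.32, adjusted p = 0.0427). Calls were lost with all arrays too. Mmp24 in osteoinductive medium did not pass after quantile normalization (0.37, limma adjusted p = 0.0843). Adamts15 in growth medium did not pass after quantile normalization (0.57, adjusted p = 0.099) or with 32 added before log2 (0.53, adjusted p = 0.0688).

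Microgravity was compared with the centrifuge to separate gravity from the rest of the flight. No gene passed in limma (0% of all genes called), and 4 of the 44 genes had an unadjusted p under 0.05, as did 10.6% of all genes. Timp1 had the smallest p of the 44, at -0.55 (95% interval -0.83 to -0.28, limma adjusted p = 0.296), and was lower in microgravity by 0.68 in growth medium and by 0.42 in osteoinductive medium. Adamts15 (0.40, interval 0.13 to 0.67, adjusted p = 0.33) and Adamts10 (0.29, interval 0.01 to 0.57, adjusted p = 0.458) followed. Adamts10, an enzyme of elastic fibre assembly, read 8.30 in microgravity and 8.19 on the centrifuge in growth medium and 8.46 and 7.99 in osteoinductive medium, with 8.00 to 8.20 in the ground-based arrays. Gravity was not all that differed between these arrays. The summed lung epithelial intensity was 3842 to 14794 in microgravity, highest in osteoinductive medium, and 2601 to 3045 on the centrifuge. Its part in these differences was not tested. Over the 44 genes the differences between microgravity and the centrifuge lay between -0.55 and 0.40. Those in growth medium had an SD of 0.29 and those in osteoinductive medium 0.21, and the 2 media had the same sign in 23 of 44 genes (Pearson r 0.21, against 0.08 over all genes). The counts do not show that gravity left these genes unaltered, since each side had 2 arrays.

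The last comparison set ground units against dishes, both at normal gravity. No gene passed in limma (0% of all genes called), and 1 of the 44 had an unadjusted p under 0.05, as did 2.41% of all genes. The 3 smallest p belonged to Adamts15 (-0.33, 95% interval -0.60 to -0.06), Adamts6 (-0.33, interval -0.68 to 0.02) and Mmp1a (0.21, interval -0.04 to 0.47), all with limma adjusted p = 1. Mmp1a, a mouse relative of interstitial collagenase, read 4.94 to 5.27 over the 8 arrays and was dim throughout. Differences over the 44 genes lay between -0.33 and 0.21. In osteoinductive medium Adamts1 was 9.94 in the unit and 10.52 in the dish and Mmp13 was 7.98 and 8.55, whereas in growth medium the 2 arrays differed by at most 0.21 for these genes.

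Other genes of matrix proteolysis were counted in the same fits, beside the 27.8% of all genes called in flight (11.6% rose, 16.2% fell, median -0.02) and the 8.45% called between media (4.18% rose, 4.27% fell, median 0.01). Of 22 genes that activate, inhibit or clear the proteases, 6 rose and 8 fell in flight, with a median of -0.06. Spock2 rose by 1.47 and Pcolce2, which was dim with a mean below the 40th percentile, by 0.88. Spock2 is a secreted proteoglycan, and Pcolce2 enhances procollagen C-propeptide removal. Plaur, the receptor of urokinase, fell by 0.79, and Spock1 rose by 0.66. Between media, 4 of the 22 rose and 1 fell, with a median of 0.08. Lrp1, the receptor that takes up proteases and their complexes, rose by 0.78, the cell-surface proteoglycan Sdc4 rose by 0.78 and Pcolce rose by 0.45, while the hyaluronan receptor Cd44 fell by 0.48. Of 21 other matrix-cleaving proteases, 1 rose and 4 fell in flight, with a median of -0.08, so 5 of 21 were called against 27.8% of all genes. The bone collagen protease Ctsk rose by 0.77, and Tll1, Adam17, Ctsd and Adam12 fell by 0.47, 0.32, 0.30 and 0.28. Between media 8 of the 21 rose and none fell, with a median of 0.23, led by Ctsb (0.68), Htra3 (0.63), Ctsk (0.61) and Fap (0.57). Fap and Hpse, both among those that rose, were dim, with means below the 40th percentile.

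Of 10 genes for proteoglycans and other substrates of the ADAMTS enzymes, 6 rose in flight and none fell, with a median of 0.32, where 11.6% of all genes rose. They were led by Ncan (1.70), Bcan (1.10), Acan (0.83), which is also on the chondrocyte list, and Fmod (0.60). Ncan and Bcan are proteoglycans of the brain and Acan is that of cartilage, and neuronal and chondrocyte markers rose on the same arrays, as given above. Their part in these rises was not tested. Between media Vcan, the versican that Adamts1, Adamts5 and Adamts9 cut, rose by 1.65 (SE 0.12, limma adjusted p = 7.35e-06) and Dcn rose by 0.57, and the other 8 were not called, where 4.18% of all genes rose. Of 7 ADAMTS-like proteins, which share domains with ADAMTS enzymes but lack the protease, 4 rose in flight, with a median of 0.26: Adamtsl3 by 0.43, Adamtsl2 by 0.37, Thsd4 by 0.31 and Adamtsl1 by 0.26. Adamtsl3 was dim, with a mean below the 40th percentile. Between media Adamtsl4 rose by 0.39 and the other 6 were not called.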

How the data were processed

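RNA of each of 8 samples was measured on 1 array after amplification and biotin labelling, per the labels' protocols. The authors deposited 1 linear intensity per probe set. Of RMA and GCRMA, both named in the submitters' processing notes, the one behind these intensities is not stated. Log2 was taken without further normalization. Of 35557 probe sets, 21789 had 1 gene, 1621 several and 12147 none in the platform annotation. Identifiers of 21698 matched RefSeq (GRCm38.p6), and 0 symbols changed. Promoters came from RefSeq of that assembly.

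Fits used limma 3.58.1 in R 4.3.3 (lmFit, eBayes) over all 19938 genes, with two-sided p-values adjusted by Benjamini-Hochberg. Flight was fitted with medium as a covariate (5 residual degrees of freedom). Media, gravity and hardware were fitted with condition and medium (3), where the interaction served as error. Differences within a medium, and their interaction, came from 4 cells of 2 arrays (4), where unlike conditions count as repeats. The scripts were tested on simulated data. Values on every array are given for Timp1 to Timp4, Mmp2, Mmp13, Mmp14 and, by size of difference among called genes, up to 15 in flight, 10 between media, 8 in the interaction and 5 elsewhere; where under 5 were called, the 3 with the smallest p were added. Of the pathway lists, the 4 largest called differences are named. The members and lists were chosen with earlier results of these data known. Alternatives were quantile normalization, filters at the 40th and 60th percentiles, 32 added before log2, a prior following the mean, the mean of a gene's probe sets, other terms or arrays, and each array left out.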

Additional observations from a re-analysis of the deposited data

Results flagged for a closer look

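In groups of 4 arrays, the highest or lowest value of 25 genes was set against the other 3, which gave 100 groups, and 4 stood apart by Dixon's 95% criterion, where chance alone marks about 1 group in 20. Mmp19 in the osteoinductive dish array was 10.80, against 10.40 to 10.43 in the other 3 osteoinductive arrays. Adamts8 in osteoinductive microgravity was 8.20, against 8.03 to 8.05. That array also had the highest summed intensity of lung epithelial (14794) and endothelial (4281) markers, whose part in the Adamts8 value was not tested. Mmp8 in growth medium in microgravity was 5.83, against 5.64 to 5.66. Mmp1a in the osteoinductive ground unit was 5.27, against 5.01 to 5.04. The last 2 genes are dim, and the 4 arrays of a group differ in condition.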

How the results depend on the processing

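The array number limits every count. The count of genes called in flight was 13 and became 8 under the filter at the 60th percentile, 7 with no term for medium and 7 without laboratory arrays, and leaving out 1 array gave 8 to 15. In growth medium alone the 12 calls became 6 under the 60th percentile filter and 2 to 18 with 1 array left out. In osteoinductive medium alone the 2 calls became 1 after quantile normalization and 0 to 7 with 1 array left out. Between media the count of 14 lay at 10 to 13 with 1 array left out, and at 11 to 14 under the other alternatives. With 1 array left out, the 3 calls within ground-based arrays became 1 to 4 and the 11 within flight arrays became 4 to 11. Under the other alternatives these counts were 2 to 4 and 11 to 14. The counts of 0 for the interaction, microgravity against the centrifuge and ground units against dishes stayed at 0 under every alternative run. Some differences changed sign, none of them called under the setting where it did: Timp2 in flight (0.03 after quantile normalization), Timp3 in flight (0.14 after quantile normalization, -0.13 to 0.15 with 1 array left out, above 0 without the growth microgravity, ground or laboratory array, and 0.08 without both laboratory arrays) and Timp4 between media (-0.01 without either centrifuge array). No cause of these changes was tested.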
